A study of Mus musculus with 23 samples.

Results

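Crypt stem cell and Wnt target genes are 10 genes known from the mouse intestine: the feedback genes Axin2, Rnf43, Znrf3 and Nkd1, the stem cell markers Lgr5, Ascl2 and Smoc2, and the crypt genes Ephb2, Ephb3 and Sox9. They were followed in the colon of mice during 6 days of dextran sulfate sodium (DSS), a polymer whose uptake from drinking water injures the lining of the colon. A gene's probe sets were those that the array's annotation assigns to its symbol alone. By that rule 9 of the 10 genes were found, with 20 of 45101 probe sets, and Ephb2 was not analysed here. At least 1 probe set of each of the 9 genes passed the filter on dim signals, 16 of the 20 in all, so the 9 genes stand among 12463 tested. The 4 that did not pass belong to Axin2, Znrf3, Lgr5 and Sox9, each of which has a brighter one that stands for the gene. The samples were whole colon of C57BL/6J mice, an inbred laboratory strain, aged 12 to 14 weeks. Untreated mice gave the 5 arrays of day 0, and mice that drank 3% DSS for 2, 4 or 6 days gave 6 arrays per day. Each array is 1 animal, and an array is named here by its day and mouse number. By the study design each day was a separate cohort, so day and cohort cannot be told apart. The piece of colon and the hour of collection are not stated in the sources used here. The question was when the feedback genes of the Wnt pathway fell and whether the stem cell markers followed.

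Wnt proteins bind Frizzled receptors on cells at the base of the crypt and keep beta-catenin from being destroyed. Beta-catenin then enters the nucleus and, with TCF and LEF factors, switches on target genes. Several of these targets restrain the pathway, so their RNA is commonly read as a report of Wnt signalling. In the colon this signal keeps stem cells at the crypt base, and DSS damages the epithelium that those cells renew.

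The promoters of Axin2 and Ascl2 are shown because these are the feedback gene and the stem cell regulator with the most negative differences at day 2. Each line holds the 250 bases before the start of transcription in RefSeq, build GRCm38.p6, 5′ to 3′ on the gene's strand. The Axin2 stretch is chr11:108920099-108920348 on the plus strand and the Ascl2 stretch is chr7:142969265-142969514 on the minus strand.
Axin2: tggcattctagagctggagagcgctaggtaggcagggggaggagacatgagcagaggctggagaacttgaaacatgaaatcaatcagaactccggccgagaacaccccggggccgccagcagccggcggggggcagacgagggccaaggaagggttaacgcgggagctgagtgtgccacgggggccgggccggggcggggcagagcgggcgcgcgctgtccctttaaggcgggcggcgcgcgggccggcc
Ascl2: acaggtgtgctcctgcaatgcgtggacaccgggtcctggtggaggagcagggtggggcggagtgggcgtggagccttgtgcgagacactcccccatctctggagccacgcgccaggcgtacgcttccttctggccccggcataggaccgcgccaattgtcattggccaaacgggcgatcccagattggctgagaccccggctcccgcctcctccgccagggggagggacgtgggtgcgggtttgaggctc
The 2 spellings CTTTGAT and CTTTGAA of the core bound by TCF and LEF factors were searched on both strands of the RefSeq promoters, which run from 250 bases before the start to 50 after it. The table held 7 such windows for 6 of the 10 genes: Axin2, Rnf43 with 2 starts, Nkd1, Ascl2, Ephb2 and Ephb3. None of the 7 held either spelling. Among all 32851 promoters, 3.73% held CTTTGAT, 5.14% held CTTTGAA and 8.65% held at least 1 of them. The shorter CTTTG, which lies within both and was added after those counts were seen, was in 53.9% of all promoters and in none of the 7 windows. The search says only that these letters are not in these windows.

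The values are the authors' signal intensities, scaled to a trimmed mean of 500 on each array, with medians of 97.3 to 121. All 15 pan-epithelial and all 12 colonocyte markers passed the filter, and 0 of 204 listed genes tested had a signal of 0 on any array. Day 4 mouse 4 stood apart: 8 of the 9 genes were highest on it among the 6 arrays of day 4, Sox9 being the exception. The same array had the lowest summed signal of pan-epithelial markers at day 4, 159003, and the highest of fibroblast markers, 93294. In the same count day 2 mouse 8 was highest for 6 of the 9 genes, day 4 mouse 1 lowest for 5 and day 2 mouse 6 lowest for 4. RNA of neighbouring tissue varied between arrays. Summed squamous markers were lowest on day 2 mouse 8 at 623 and on day 4 mouse 8 at 856, against 5520 to 9609 at day 0, and skeletal muscle markers were lowest of their days on the same arrays. Pancreas markers were highest on day 2 mouse 6, at 83308, and day 6 mouse 1, at 25644, against 8859 to 11445 at day 0. Without these 4 arrays the members called lower numbered 1 at day 2 and 7 at day 6, as with all arrays, and Axin2 differed by -1.04 at day 2 (adjusted p = 0.00618). Signals were compared as log2(signal + 16), on which a difference understates the change of a dim gene. Adjusted p-values below come from limma with Benjamini-Hochberg adjustment over all 12463 genes, and 0.05 is the threshold for a call.

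At day 2, 1 of the 9 genes had fallen, Axin2, where 0.0642% of all genes tested were called lower and 0.0160% higher. The other 8 also had negative differences, and the median over the 9 was -0.57 against 0.014 over all genes. Axin2, Lgr5 and Ascl2 lay on every day 2 array below every day 0 array, which 1.0% of all genes did. At day 4, Axin2, Lgr5 and Sox9 were called lower, 3 of 9 against 4.32% of all genes, and none was among the 12.1% called higher. The median of the 9 was then -0.40 against 0.061, and Axin2 and Lgr5 were below day 0 without overlap, as were 2.45% of all genes. At day 6, 7 of 9 genes were called lower against 14.3% of all genes, and 1, Smoc2, was called higher against 18.1%. Nkd1 did not pass. The median was -0.78 against 0.021, and Axin2, Rnf43, Lgr5, Ascl2 and Sox9 lay below day 0 without overlap, as did 6.64% of all genes. In whole tissue, fewer cells of a type and less RNA per cell cannot be told apart. The 3 comparisons with day 0 share its 5 arrays.

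**Figure D1:**
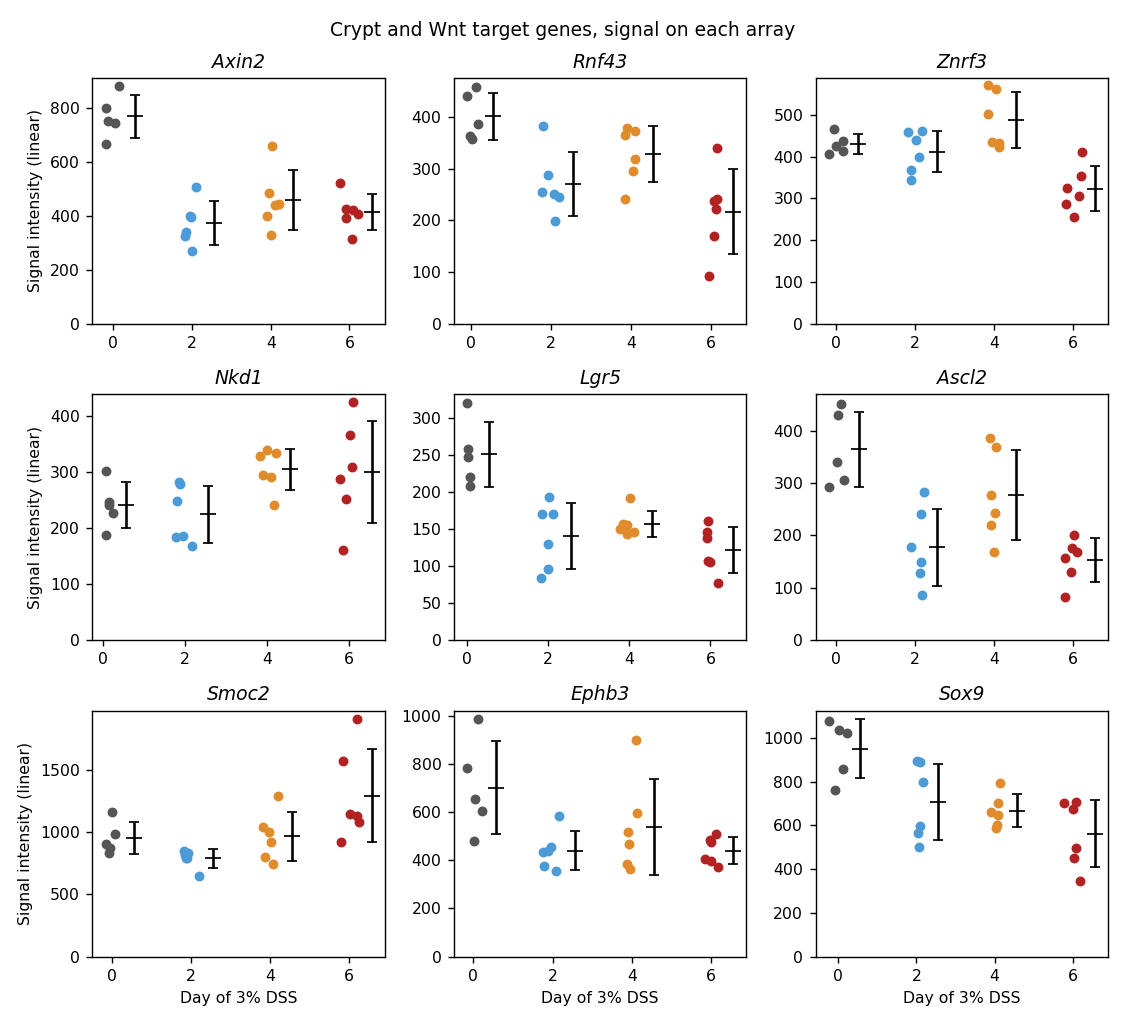
Signal intensity (y axis, linear scale from 0) of the 9 measured genes on each array, by day of 3% DSS (x axis); points are animals, and the bar beside them is the day's mean ± SD. The day 2 points of Axin2, Lgr5 and Ascl2 lie below all their day 0 points, and the highest Smoc2 point is the 1911 of a day 6 array.

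Axin2, a scaffold of the complex that marks beta-catenin for destruction (chr11:108917828-108950783, GRCm38.p6), was the first of the feedback genes to be called. Its signals at day 0 were 669, 746, 752, 802 and 882. The lowest, median and highest were 271, 368 and 508 at day 2, then 329, 441 and 659 at day 4, and 313, 414 and 524 at day 6. Every array of the DSS days was thus below all 5 untreated arrays. The log2 difference was -1.03 ± 0.15 at day 2 (SE, adjusted p = 0.00571), which is 0.489 of the untreated level and the lowest p of all genes in that comparison. It was -0.75 ± 0.15 at day 4 (adjusted p = 0.00184) and -0.88 ± 0.15 at day 6 (adjusted p = 0.000105). No further fall of Axin2 was detected after day 2: between day 6 and day 2 the difference was 0.15 ± 0.14 (adjusted p = 0.457). A dimmer Axin2 probe set, which missed the filter and was not tested, had means of 52.4, 56.9 and 59.8 at days 2, 4 and 6, against 130.0 at day 0.

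Rnf43 (chr11:87663087-87735539) and Znrf3 (chr11:5276329-5444847) encode membrane ubiquitin ligases that remove Frizzled receptors from the cell surface, and both were called only at day 6 among the days compared with day 0. Rnf43 had 359, 364, 388, 442 and 458 at day 0. Under DSS its lowest, median and highest signals were 199, 253 and 383 at day 2, then 242, 342 and 379 at day 4, and 91.5, 230 and 341 at day 6. Only the day 6 arrays all lay under the untreated ones, with day 6 mouse 21 far down. The difference was -0.57 ± 0.21 at day 2 (adjusted p = 0.241), -0.29 ± 0.21 at day 4 (adjusted p = 0.372) and -0.93 ± 0.21 at day 6 (adjusted p = 0.0015). Znrf3 had 406, 413, 426, 437 and 466 at day 0. Its lowest, median and highest signals were 344, 418 and 462 at day 2, then 422, 468 and 572 at day 4, and 256, 315 and 410 at day 6. The Znrf3 arrays of days 2 and 4 overlapped those of day 0, and 1 day 6 array, mouse 29, reached the untreated range. Znrf3 differed by -0.07 ± 0.11 at day 2 (adjusted p = 0.86), 0.17 ± 0.11 at day 4 (adjusted p = 0.331) and -0.41 ± 0.11 at day 6 (adjusted p = 0.00729). A dim Znrf3 probe set, which missed the filter and was not tested, had means of 33.5, 12.7, 13.8 and 9.20 at days 0, 2, 4 and 6. Its mean was lower at day 2, but it exceeded the array median on 0 arrays. The 2 days overlapped, with 3.52 on day 0 mouse 4 and 41.0 on day 2 mouse 8, so this probe set does not date a fall.

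Nkd1 (chr8:88521342-88594887), which binds Dishevelled and dampens the signal inside the cell, was not called at any day by its brightest probe set. It had 188, 227, 241, 246 and 301 at day 0. Later signals had a lowest, median and highest of 168, 217 and 283 at day 2, then 242, 312 and 339 at day 4, and 162, 298 and 425 at day 6. Every day overlapped day 0. The differences were -0.11 ± 0.18 at day 2 (adjusted p = 0.861), 0.33 ± 0.18 at day 4 (adjusted p = 0.235) and 0.26 ± 0.18 at day 6 (adjusted p = 0.301). A dimmer Nkd1 probe set differed by 0.46 ± 0.14 at day 6, with adjusted p = 0.0136 over all probe sets kept, and the mean of all its kept probe sets gave 0.38 (adjusted p = 0.0128). Without day 6 mouse 1, the lowest Nkd1 array of that day, the brightest probe set passed too, at 0.41 (adjusted p = 0.0496).

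Lgr5 (chr10:115450314-115587780), the receptor for R-spondins that marks dividing stem cells at the crypt base, had 208, 220, 247, 259 and 320 at day 0. Its lowest, median and highest signals were 83.7, 150 and 194 at day 2, then 144, 153 and 192 at day 4, and 77.1, 122 and 160 at day 6. Every DSS array was below every untreated array, as for Axin2. The difference at day 2, -0.80 ± 0.19, missed the threshold (adjusted p = 0.0772). It passed at day 4, at -0.61 ± 0.19 (adjusted p = 0.0295), and at day 6, at -0.97 ± 0.19 (adjusted p = 0.000402). The day 4 call ended without day 0 mouse 1 (adjusted p = 0.0524), mouse 4 (adjusted p = 0.083) or mouse 5 (adjusted p = 0.0607), or without day 4 mouse 3 (adjusted p = 0.053). The other Lgr5 probe set was dim on all arrays, at 5.05 to 88.1, and was not tested. Its means were 35.3, 39.9, 20.4 and 49.2 at days 0, 2, 4 and 6, so it was not lower at days 2 and 6.

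Ascl2 (chr7:142966822-142969264), a transcription factor that sets the stem cell program of the crypt base, had 293, 306, 340, 431 and 451 at day 0. Under DSS the lowest, median and highest were 85.3, 164 and 282 at day 2, then 168, 260 and 386 at day 4, and 82.2, 163 and 201 at day 6. Days 2 and 6 lay wholly below day 0, while mouse 4 and mouse 8 of day 4 reached the untreated range. The difference was -1.04 ± 0.25 at day 2 (adjusted p = 0.0802), -0.41 ± 0.25 at day 4 (adjusted p = 0.282) and -1.20 ± 0.25 at day 6 (adjusted p = 0.000725). The day 2 estimate for Ascl2 was as large as that for Axin2, with a larger error. Ascl2 passed at day 2 with the 3′ to 5′ ratio of beta-actin in the fit (-1.20, adjusted p = 0.032). In 13 of the 14 other settings it did not pass, with adjusted p up to 0.482 with the mouse number as a block. Nor did it pass with any single array left out. The other Ascl2 probe sets differed by -1.50 and -1.28 at day 6, both past the threshold, and 2 of the 3 are of a type that can share probes between transcripts. The probe set at -1.28 exceeded the array median on only 6 arrays, none of them of day 6, where its mean was 57.9 ± 36.4 (SD, n = 6). It was thus kept through the days when it was high, and its fall is not separate support.

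Smoc2 (chr17:14279490-14404790), a secreted matrix protein of the stem cell signature in mouse intestine that fibroblasts can also make, had a difference of the opposite sign at day 6. Its signals were 835, 875, 901, 987 and 1161 at day 0. Its lowest, median and highest signals were 644, 807 and 845 at day 2, then 746, 960 and 1292 at day 4, and 923, 1135 and 1911 at day 6. All days overlapped day 0, and the spread was widest at day 6. The difference was -0.26 ± 0.15 at day 2 (adjusted p = 0.49), 0.01 ± 0.15 at day 4 (adjusted p = 0.981) and 0.40 ± 0.15 at day 6 (adjusted p = 0.0467). The day 6 call ended when any of 14 arrays was left out, with the highest adjusted p of 0.133 without day 6 mouse 21. It also ended with the mean of the Smoc2 probe sets (0.13, adjusted p = 0.591), since the dimmer one differed by -0.13 ± 0.23 (adjusted p = 0.709). Fibroblast markers were higher at day 6, 12 of 12, with summed signals of 76651 to 119046 against 53676 to 66021 at day 0. The highest sum was that of mouse 21, which also had the highest Smoc2. Their part in the result was not tested.

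Ephb3 (chr16:21204620-21223309), a receptor for ephrin-B ligands that helps to place cells along the crypt, had 478, 604, 653, 784 and 988 at day 0. Later signals had a lowest, median and highest of 355, 435 and 583 at day 2, then 365, 491 and 901 at day 4, and 370, 441 and 507 at day 6. At days 2 and 6 the overlap came from day 0 mouse 5 alone, at 478, and at day 4 also from the 901 of mouse 4. Ephb3 differed by -0.63 ± 0.19 at day 2 (adjusted p = 0.14), -0.40 ± 0.19 at day 4 (adjusted p = 0.156) and -0.62 ± 0.19 at day 6 (adjusted p = 0.0139). Without day 4 mouse 4, whose 901 was the highest of that day, the day 4 difference was -0.56 and passed (adjusted p = 0.0314). Without day 0 mouse 3 the day 6 call ended (adjusted p = 0.0583).

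Sox9 (chr11:112782210-112787757), a transcription factor of crypt base cells, had 761, 855, 1023, 1037 and 1077 at day 0. Its lowest, median and highest signals were 502, 696 and 893 at day 2, then 586, 656 and 795 at day 4, and 344, 584 and 706 at day 6. At day 2, 3 of 6 arrays were within the untreated range, at day 4 it was 1, and at day 6 it was 0. Sox9 differed by -0.44 ± 0.17 at day 2 (adjusted p = 0.263), -0.50 ± 0.17 at day 4 (adjusted p = 0.0498) and -0.78 ± 0.17 at day 6 (adjusted p = 0.00129). The day 4 call ended when any of 13 arrays was left out, with the highest adjusted p of 0.115 without day 0 mouse 3 and 0.0807 without day 4 mouse 4. Another bright Sox9 probe set gave -0.92 ± 0.15 at day 6 (adjusted p = 7.33e-05). A dim one, which missed the filter and was not tested, had means of 39.6, 53.4, 48.0 and 24.0 at days 0, 2, 4 and 6.

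**Figure D2:**
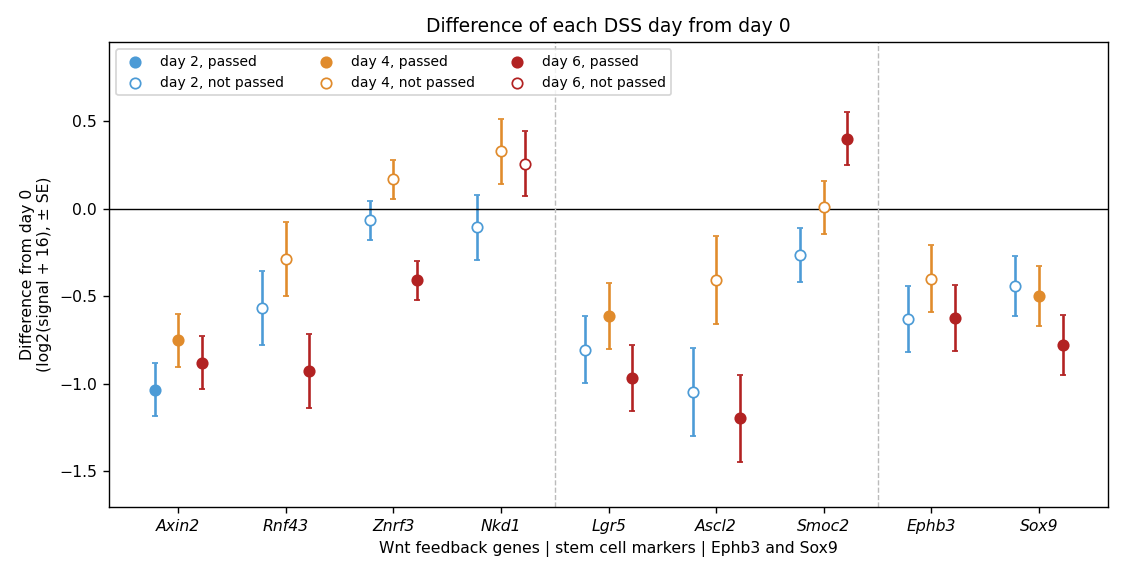
Difference from day 0 on the log2(signal + 16) scale (y axis) for the 9 genes (x axis) at days 2, 4 and 6 of 3% DSS, shown by colour, with bars of 1 SE from limma; filled points passed the threshold. Axin2 is at -1.03 by day 2. Rnf43, Znrf3, Lgr5, Ascl2 and Sox9 have their lowest point at day 6, and Smoc2 ends above 0 at 0.40.

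**Figure D3:**
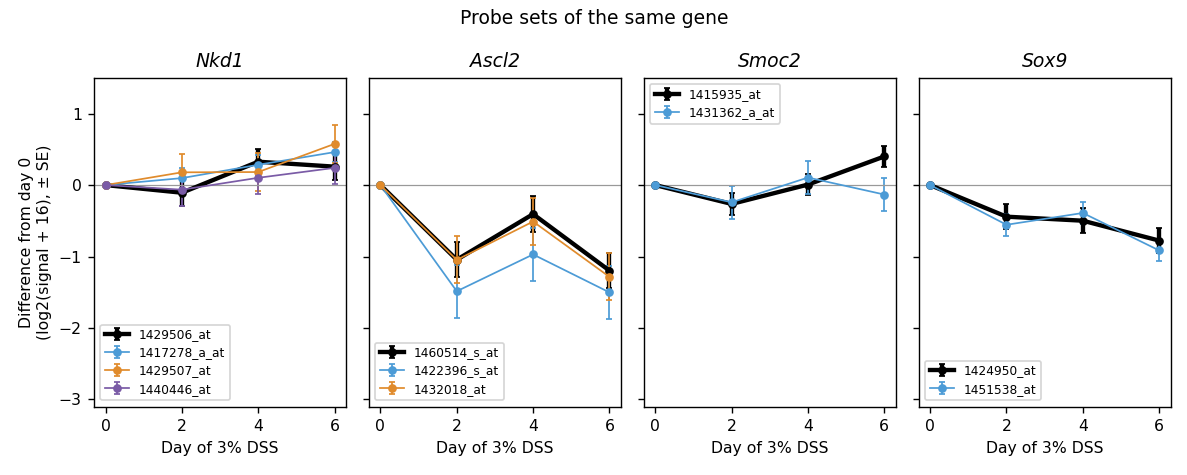
Difference from day 0 on the log2(signal + 16) scale (y axis, bars of 1 SE) against day of 3% DSS (x axis) for every kept probe set of Nkd1, Ascl2, Smoc2 and Sox9; the black line is the probe set used for the gene. The probe sets of Ascl2 and of Sox9 are all below 0, while those of Smoc2 part at day 6, at 0.40 and -0.13.

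From day 2 to day 4 none of the 9 was called, while 13.5% of all genes were called in either direction, and 8 of 9 differences were positive, Sox9 being the exception. Over all genes 61.1% of differences were positive. At an unadjusted p under 0.05, 3 of the 9 differed, Znrf3, Nkd1 and Ascl2, where 29.6% of all genes did. Ascl2 had the largest of these differences, 0.64 ± 0.24 (adjusted p = 0.0764), and passed without day 2 mouse 1, the highest Ascl2 array of day 2 (0.78, adjusted p = 0.0371). Axin2 differed by 0.28 ± 0.14 in this step (adjusted p = 0.194).

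From day 4 to day 6, 3 of 9 fell, against 13.7% of all genes called lower. Rnf43 fell by 0.64 (adjusted p = 0.0225), Znrf3 by 0.58 without overlap (adjusted p = 0.000459) and Ascl2 by 0.79 (adjusted p = 0.0184). The Ascl2 step did not pass without day 4 mouse 4 (adjusted p = 0.0501). The Rnf43 step did not pass without day 6 mouse 4 (adjusted p = 0.0522) or mouse 21 (adjusted p = 0.0542). Axin2 differed by -0.13 in the same step and Lgr5 by -0.35, and neither passed. Between day 6 and day 2, a comparison added after the data were seen, Znrf3 alone of the 9 was called lower (-0.34, adjusted p = 0.0175), where 14.2% of all genes were. Smoc2 was higher by 0.66 (adjusted p = 0.00125), and the share of all genes called higher in this comparison was not counted. The dimmer Smoc2 probe set averaged 289 ± 57.0 at day 2 and 330 ± 155 at day 6 (SD, n = 6 each).

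Whether 2 genes moved unequally was tested on their ratio within each array, in 30 exact two-sided permutation tests over 462 splits of 6 arrays against 5, adjusted together. These tests were added after the data were seen. Axin2 was set against each other member, and Smoc2 and Ascl2 also against Lgr5. Axin2 had the lowest p of all genes at day 2 on these same arrays, so its ratios are not independent support for its fall. Ascl2 was not set against Znrf3, Rnf43 or Nkd1. The log2 ratio of Axin2 to Znrf3 averaged -0.15 ± 0.22 at day 2 and 0.82 ± 0.16 at day 0 (SD, n = 6 and 5, exact p = 0.00216, the smallest that the splits can give, adjusted p = 0.00812). Every one of the 6 day 2 arrays lay below every untreated array in that ratio. Axin2 also fell more than Rnf43 at day 2, by 0.47 (exact test, adjusted p = 0.0271), and at day 4, by 0.46 (exact test, adjusted p = 0.0417). At day 6 no difference between the 2 genes was detectable, their ratio being higher than at day 0 by 0.05 (exact test, adjusted p = 0.918). Against Nkd1 the ratio of Axin2 was lower at each day, by 0.93, 1.08 and 1.14 at days 2, 4 and 6 (exact tests, adjusted p = 0.013, 0.00812 and 0.00812).

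Of the stem cell markers, Lgr5 and Ascl2 could not be set behind Axin2 in time. The ratio of Axin2 to Lgr5 differed from day 0 by -0.23, -0.14 and 0.09 at days 2, 4 and 6 (exact tests, adjusted p = 0.416, 0.485 and 0.779). The ratio to Ascl2 differed by 0.01, -0.34 and 0.32 (exact tests, adjusted p = 0.965, 0.234 and 0.416). No difference in the size of the change was detectable between these genes at any of the 3 days, which does not show that they changed alike. Ascl2 and Lgr5 did not part from each other either, with differences of -0.24, 0.21 and -0.23 (exact tests, adjusted p = 0.416, 0.416 and 0.234). Smoc2 did part from Lgr5: the ratio of Smoc2 to Lgr5 averaged 3.23 ± 0.43 at day 6 and 1.86 ± 0.32 at day 0 (SD, n = 6 and 5, exact test, adjusted p = 0.00812). Smoc2 also parted from Axin2. The ratio of Axin2 to Smoc2 differed from day 0 by -0.77, -0.76 and -1.28 at days 2, 4 and 6 (exact tests, adjusted p = 0.00812 at each). Axin2 fell more than Sox9 at day 2, by 0.59 (exact test, adjusted p = 0.013), but not past the threshold at days 4 and 6.

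Among genes that are not members, those most like Axin2 over the 23 arrays were Lonrf3 (Pearson r 0.80, Spearman rho 0.68), Hopx (0.77 and 0.70), Ptger4 (0.77 and 0.64), Mlxipl (0.76 and 0.67) and Nrm (0.75 and 0.68). The member most like Axin2 was Ephb3, at r 0.75. For Lgr5 the nearest were Elf1 (0.84 and 0.82), Etv4 (0.77 and 0.75), Clca3b (0.76 and 0.80), Dpy30 (0.75 and 0.76) and Psmd10 (0.75 and 0.68). Ascl2 had rank 2 for Lgr5 among all genes, at r 0.80. The arrays share their days, so these correlations hold the day's shift. With each day's mean taken out, Lgr5 and Ascl2 still varied together between animals of 1 day, at r 0.59, while Lgr5 and Axin2 had r 0.15. The nearest to Axin2 were then Sub1 (0.80), Paf1 (0.75), Atrx (0.75), Slc29a1 (0.75) and Ntpcr (0.74), and to Lgr5 Malsu1 (0.80), Usp14 (0.77), Cinp (0.76), Fam43a (0.74) and 4930503L19Rik (0.72).

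Other Wnt targets passed in both directions. Of 11 tested, 0 passed at day 2, 2 rose and 1 fell at day 4, and 2 rose and 2 fell at day 6, with medians of 0.11, 0.25 and 0.04. Over all genes, 16.4% passed in either direction at day 4 and 32.4% at day 6. Myc, a growth regulator, had the lowest p at day 2, with 567 ± 143 against 938 ± 220 at day 0 (SD, n = 6 and 5, limma adjusted p = 0.0665). Its mean at day 6 was 957 ± 170 (SD, n = 6). Bambi, a decoy receptor that restrains BMP and TGF-beta signals, fell by 0.47 at day 4 and 0.63 at day 6 (adjusted p = 0.042 and 0.00343). Ccnd1, a cyclin that starts the cell cycle, rose by 0.40 and 0.47 at these days. Cd44, a hyaluronan receptor, rose by 0.72 at day 6. Leukocyte markers rose on that day, 7 of 8, and their part in the Cd44 result was not tested. Nkd2, the relative of Nkd1, rose by 0.85 at day 4 (adjusted p = 0.00134) and differed by -0.18 at day 6.

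Other genes used as markers of stem or crypt base cells were mixed. Of 16 tested, 0 passed at day 2 (median -0.15), 1 rose at day 4 (median -0.06), and 3 rose and 8 fell at day 6 (median -0.26). Over all genes, 12.1% rose at day 4, and 18.1% rose and 14.3% fell at day 6. Reg4, a lectin of the secretory cells beside colon stem cells, fell to 2970 ± 3806 at day 6, against 7583 ± 1187 at day 0 (SD, n = 6 and 5). Kcnq1, a potassium channel of crypt base cells, fell by 0.64 and Hopx, a homeobox protein used as a marker of reserve stem cells, fell by 0.56. Igfbp4, which binds insulin-like growth factors, rose to 12303 ± 2149 against 4647 ± 422, a difference of 1.39. Igfbp4 was also the 1 gene of this list that rose at day 4, by 0.93. Fibroblast markers rose at day 6, 12 of 12, and their part in the Igfbp4 result was not tested.

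Upstream of the pathway, secreted regulators rose. Receptors and core components were called in both directions at day 6, in neither direction above the share of all genes. Of 11 ligands, R-spondins and secreted inhibitors, 0 passed at day 2, 6 rose at day 4 and 8 at day 6, and none fell, with medians of 0.26, 0.48 and 0.63. Over all genes, 12.1% rose at day 4 and 18.1% at day 6. Rspo3, the ligand of Lgr5 that strengthens Wnt signals, averaged 297 ± 59.1, 412 ± 59.7, 667 ± 103 and 989 ± 274 at days 0, 2, 4 and 6. It rose by 1.13 at day 4 and 1.66 at day 6 (adjusted p = 0.000188 and 1.07e-07). Sfrp1, a secreted Wnt inhibitor, rose by 0.89 and 1.60 at these days, and Grem1, a BMP antagonist, by 1.34 at day 6. Fibroblast markers rose on the same days, 8 of 12 at day 4 with sums of 65067 to 93294, and 12 of 12 at day 6 with the sums given above. Their part in these results was not tested. Of 28 receptors and core components, 4 rose at day 4, against 12.1% of all genes. At day 6, 3 rose and 4 fell, against 18.1% and 14.3% of all genes. Tcf7l1, a TCF factor that mostly represses, fell by 1.07 at day 6, Fzd2 by 0.71, and Fzd1 rose by 0.79 (adjusted p = 3.71e-05, 0.0074 and 0.000671).

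Of 22 cell cycle genes, 0 passed at day 2, where 21 had negative differences and the median was -0.48. At day 4, 2 of the 22 fell, against 4.32% of all genes. These were Ube2c and Ccna2, which act in mitosis, by 0.63 and 0.61. At day 6, 4 of the 22 rose, a share near the 18.1% of all genes called higher. The 4 included Rrm2, by 0.95, and the replication genes Mcm3 and Mcm4, by 0.65 and 0.64. Of the stem cell markers, Lgr5 and Ascl2 were called lower on that day and Smoc2 was called higher. Of 9 genes listed as markers of regenerating epithelium, 1 rose at day 2, where 0.0160% of all genes did. It was Krt7, a keratin, by 0.57 (limma adjusted p = 0.00726). At day 6, 5 of the 9 rose, where 18.1% of all genes did. The 5 included the alarmin Il33 by 2.79, the EGF receptor ligand Ereg by 2.20 and the gap junction gene Gja1 by 0.93. Which cells of the whole colon made this RNA was not tested.

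**Figure D4:**
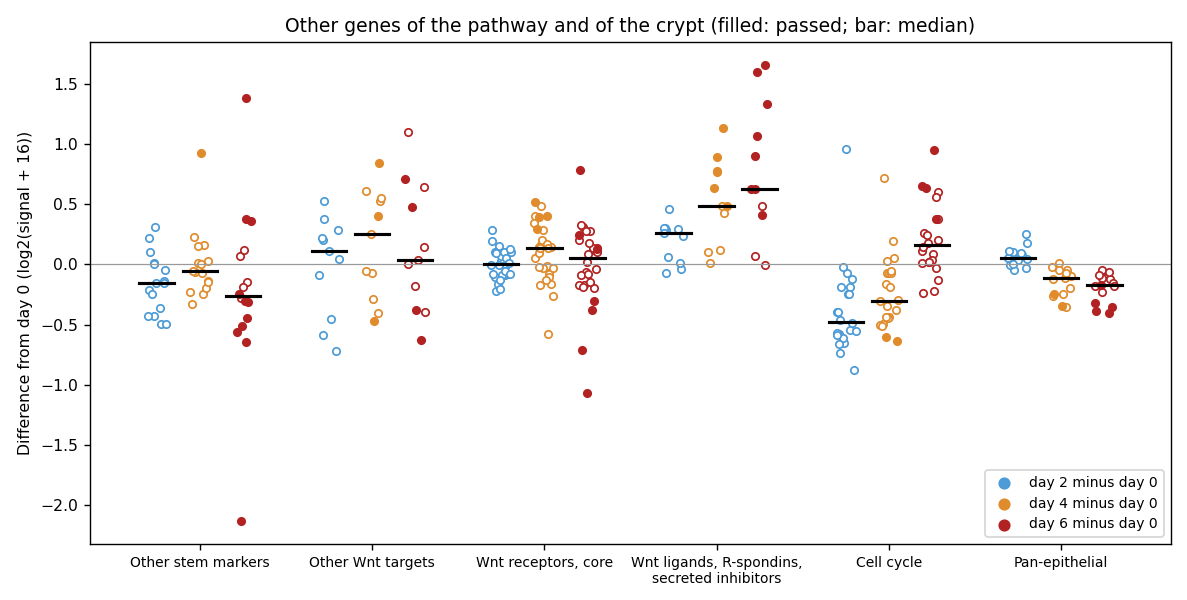
Difference from day 0 on the log2(signal + 16) scale for each gene of the pathway lists at days 2, 4 and 6; filled points passed the threshold and the bar is the list's median. Secreted regulators have medians of 0.26, 0.48 and 0.63, and cell cycle genes have medians of -0.48, -0.30 and 0.16.

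Tissue makeup and array quality moved with the days. At day 2, 0 of 15 pan-epithelial, 0 of 12 colonocyte, 0 of 12 fibroblast and 0 of 8 leukocyte markers passed, with pan-epithelial sums of 186883 to 207984 against 183585 to 198817 at day 0. Only 0.0802% of all genes passed on that day, so these counts do not show that the makeup was unchanged. Smooth muscle markers, of which 0 of 9 passed at day 2, had sums of 100362 to 113721 against 85784 to 97231 at day 0, without overlap. Their part in the Axin2 result was not tested. At day 6, 14.3% of all genes fell and 18.1% rose. On that day 5 of 15 pan-epithelial markers fell (median -0.17), with sums of 144677 to 184390, and 7 of 8 leukocyte markers rose. Squamous markers rose too, 4 of 8 (Krt14, Dsc3, Krt5 and Trp63), with sums of 17331 to 41750 against 5520 to 9609 at day 0. Skeletal muscle sums were 3223 to 71559 at day 6 and 8730 to 19155 at day 0, and 0 of 8 markers passed. The part of these tissues in the day 6 results was not tested. With each array centred on the pan-epithelial genes, Axin2, Rnf43, Lgr5, Ascl2, Sox9 and Smoc2 kept their day 6 calls, while Znrf3 (adjusted p = 0.255) and Ephb3 (adjusted p = 0.0919) did not. At day 4 that centring left the call of Axin2 and ended those of Lgr5 (adjusted p = 0.108) and Sox9 (adjusted p = 0.141). The hybridization controls, transcripts added to each sample, differed from day 0 by -0.05 at day 2, -0.37 at day 4 and -0.50 at day 6 (log2, exact permutation tests, adjusted p = 0.476, 0.00487 and 0.00649, over 9 tests). The 3′ to 5′ ratio of beta-actin was higher by 0.03, 0.18 and 0.09 at days 2, 4 and 6 (exact tests, adjusted p = 0.302, 0.00649 and 0.00487), and that of Gapdh by 0.05, 0.18 and 0.15 (exact tests, adjusted p = 0.223, 0.00487 and 0.00487). With the hybridization controls in the fit, 0 members were called lower at day 4 and 1, Sox9, at day 6. In that fit the day 6 differences were -0.999 for Ascl2 (adjusted p = 0.157), -0.94 for Lgr5 (adjusted p = 0.0794), -0.59 for Axin2 (adjusted p = 0.157) and -0.14 for Rnf43 (adjusted p = 0.836). On every array of days 4 and 6 these controls lay below all day 0 arrays, so their level and the day cannot be told apart.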

How the data were processed

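Total RNA of whole mouse colon was hybridized to Affymetrix Mouse Genome 430 2.0 arrays, 1 per animal. The authors deposited linear signal intensities, made with MAS5 per the submitters' processing notes, and the deposited values have a trimmed mean of 500 on each array after 2% at each end is left out. No further normalization was applied. That scaling cannot show a change in total RNA, and the number of arrays limits the precision.

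The platform annotation, with symbols updated through gene IDs, gave 1 symbol for 34945 of 45101 probe sets. Probe sets above the array's own median on 5 or more arrays were kept, and the kept probe set with the highest mean stood for a gene. All 4 days were fitted together with limma 3.58.1 in R 4.3.3 (mean-variance trend) on log2(signal + 16), adjusted by Benjamini-Hochberg over 12463 genes, two-sided. Single ratios and array controls had exact permutation tests. The fit was tested on simulated data. All members are named. From each other list and day the rule took the 3 genes with the largest change that passed, or the 2 with the lowest p where none did, and the text gives a choice of them made after their values were seen. For likeness it took 5 genes per target. Members and lists were chosen with earlier results of these data known. The study design names a separate cohort per day, which the sample titles do not state. The p-values measure the spread between these animals, not between cohorts. Alternatives covered scaling, pseudocount, filter, probe sets, covariates, the mouse number as a block and leaving out arrays.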

Additional observations from a re-analysis of the deposited data

Results flagged for a closer look

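Among 36 groups of 1 gene on 1 day, 2 held an array far from the others, where chance gives about 1 in 20. Lgr5 was highest on day 4 mouse 4, at 191.7 against 157.0 on the next array of that day, a gap of 0.696 of the day's range. Without that array Lgr5 still passed at day 4 (-0.67, adjusted p = 0.0326). Smoc2 was lowest on day 2 mouse 6, at 644.2 against 791.8 on the next array, a gap of 0.759 of the range.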

How the results depend on the processing

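For the 9 genes in 5 comparisons, 984 values kept direction and call with 1 array left out, 35 lost the call, 7 gained it and 9 changed sign. Under the other settings the numbers were 568, 36, 10 and 16. The causes were not tested. Axin2 kept its calls at days 2, 4 and 6 with any single array left out. Leaving out 1 array gave 1 to 3 members lower at day 4 (1 without mouse 1 or mouse 5 of day 0 or without mouse 3 of day 4). For all genes it gave 4 to 32 calls at day 2 (32 without day 0 mouse 4, against 10 in all) and 714 to 1854 from day 2 to day 4 (714 without day 4 mouse 4). Differences near 0 crossed it: Smoc2 at day 4 (-0.080 to 0.080), Sox9 from day 2 to day 4 (-0.15 to 0.017) and Nkd1 from day 4 to day 6 (-0.18 to 0.086).

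All genes called at day 2 numbered 30 with probe sets tested singly, 4 without the trend, 60 with only the days compared, 31 with the beta-actin ratio and 3 without 4 arrays (mouse 6 and mouse 8 of day 2, mouse 8 of day 4 and mouse 1 of day 6) chosen for RNA of neighbouring tissue. The beta-actin ratio gave 2 members lower at day 2, 1 at day 4 and 1 from day 4 to day 6. It gave 80 genes at day 4 (2043 in the fit used), 29 from day 2 to day 4 (1686) and 1519 from day 4 to day 6 (2845). It turned Znrf3 at day 4 (-0.091), 4 steps from day 2 to day 4 (Axin2 -0.19, Rnf43 -0.22, Ascl2 -0.074, Ephb3 -0.033) and Axin2 from day 4 to day 6 (0.18). The hybridization controls gave 0 members at day 4 and 1 at day 6, and 332, 1221 and 72 genes at day 4, day 6 and from day 2 to day 4. They turned Rnf43 (0.29) and Smoc2 (-0.073) at day 4. Singly tested probe sets gave 4616, 7266, 3214 and 4492 calls at day 4, at day 6 and in the 2 steps. Pan-epithelial centring gave 1 member at day 4, 4904 and 1855 genes in the 2 steps, and turned Sox9 in the first (0.16). Median centring turned Smoc2 at day 4 (-0.0072). The mean of a gene's probe sets turned Nkd1 at day 2 (0.026) and from day 4 to day 6 (0.16), and Sox9 from day 2 to day 4 (0.054). Without the 4 arrays, Nkd1 turned from day 4 to day 6 (0.074).

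The mouse numbers recur across days, but the study design names separate cohorts. Over 17 pairs of arrays with the same number, deviations from day means had a median correlation of 0.045, against 0.003 for other numbers, with a range of -0.155 to 0.703. Mouse 8 of days 2 and 4 had the highest, and 3 pairs were above 0.1. Of 17 arrays with a same-number array on another day, 3 correlated best with it. The numbers were therefore not taken as pairs. With the number as a block, 0 members and 0 genes passed at day 2 (Axin2 -0.99, adjusted p = 0.296), 1 member at day 4, 2449 genes at day 6 and 87 from day 2 to day 4. Znrf3 (0.11) and Nkd1 (0.20) turned at day 2.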
